A study of Mus musculus with 24 samples.

Results

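The cytosolic ribosome is built from ribosomal RNA and a large set of ribosomal proteins, and the genes of these proteins were followed here in 6 organs of mice that lack Nur77. Members were chosen by name: every probe whose platform gene symbol begins with Rpl, Rps or Rplp directly followed by a digit, without the Rps6k symbols, which are kinases of Rps6. This rule found 93 probes for 61 of the 9834 gene symbols on the array. Of these, 38 carry a large subunit symbol and 23 a small subunit symbol. They comprise 55 core ribosomal proteins and 5 paralogs (Rpl22l1, Rpl36al, Rpl39l, Rpl7l1 and Rps27l). The last symbol, Rps19bp1, encodes a protein that binds Rps19 and is no part of the ribosome. Its symbol meets the rule, so it is counted among the small subunit symbols and in their medians.

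Total RNA of lung, spleen, testis, skeletal muscle, heart and brown adipose tissue was compared between Nur77-/- and wild-type (Nur77+/+) mice on 2-colour arrays. For each organ a pool of 7 mutant mice was hybridised against a pool of 7 wild-type mice per the design text, while the labelling protocol speaks of 6 control animals. Each organ had 4 arrays, with the mutant pool in Cy5 on replicates 1 and 2 and in Cy3 on replicates 3 and 4. No treatment is named, and the labels give no age, sex or strain. The 4 arrays of an organ are repeated hybridisations of the same pair of pools, so p-values measure the spread between hybridisations and not between animals. The wild-type channel of heart replicate 2 is labelled skeletal muscle. Because the values are ratios, an organ that both channels share could not be checked against the level of its markers. In an organ, fewer cells of a type and less RNA per cell cannot be told apart.

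Ribosomal proteins fold and stabilise the ribosomal RNA. The small subunit reads the mRNA and the large subunit joins the amino acids. Cells make them in matched amounts, and their mRNAs typically begin with a terminal oligopyrimidine (TOP) tract, an unbroken stretch of C and T letters at the transcription start, through which mTOR signalling controls their translation as a group. Array values report mRNA and say nothing of this translational control. Nur77 is the protein of Nr4a1, an immediate early nuclear receptor gene.

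RefSeq start sites (GRCm38.p6) were found for 53 of the 61 genes. The 30 bases around the start, 15 before it and 15 from it on, were read on the strand that matches the mRNA. An unbroken run of at least 7 C or T letters was present in 29 of the 53 genes (54.7%), against 21.3% of 27025 genes with a start site. The windows of 5 genes whose ratios recur below are shown, because they show members with a long run and members without one. Capitals mark the longest run of C or T letters, and the start is the 16th base.
Rpl35, chr2:39005117-39005146, minus strand: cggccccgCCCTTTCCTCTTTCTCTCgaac
Rps15a, chr7:118116133-118116162, minus strand: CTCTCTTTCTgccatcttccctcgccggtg
Rps27, chr3:90213634-90213663, minus strand: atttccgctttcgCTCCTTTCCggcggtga
Rpl37, chr15:5116598-5116627, plus strand: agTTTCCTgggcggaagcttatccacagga
Rps16, chr7:28350674-28350703, plus strand: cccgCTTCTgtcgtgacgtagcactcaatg
The run of Rpl35 spanned 18 bases, that of Rps15a 10 and that of Rps27 9. The longest runs of Rpl37 and Rps16 had 6 and 5 bases.

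All values are log2 ratios of mutant over wild type relative to the median of the array, so 0 is the array's middle gene and -1 is a ratio of one to 2. No source states this direction, which is likely: Nr4a1 lay below 0 on 21 of the 22 arrays that measured it, 11 of 11 with the mutant in Cy5 and 10 of 11 with the mutant in Cy3. Between 51 and 59 of the 61 symbols had a value on an array. Arrays of the same organ correlated weakly over all rows, at a median Spearman rho of 0.10 for the 12 pairs of equal dye orientation and -0.04 for the 24 pairs of opposite orientation. Over the ribosomal protein genes alone these medians were 0.17 and -0.02. The members were spread less than other genes: their interquartile range was narrower than that of all rows on 22 of 24 arrays.

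**Figure D1:**
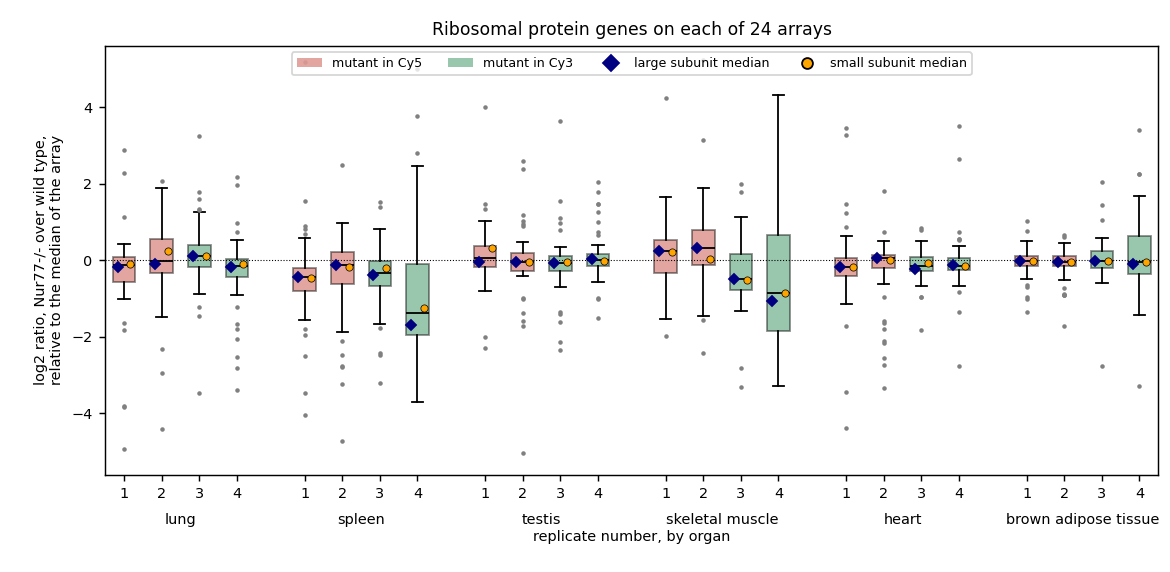
Log2 ratios of the ribosomal protein genes on each of the 24 arrays, relative to the array median (y axis), by organ and replicate (x axis). Boxes span the quartiles with the median line, whiskers reach 1.5 times the box, and points beyond are single genes. Diamonds and circles give the medians of the large and small subunit, which lie lowest on spleen replicate 4 (-1.69 and -1.25) and skeletal muscle replicate 4 (-1.07 and -0.85).

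Spleen was the organ in which the ribosomal protein genes lay lowest as a family. Of the 61 genes, 51 had enough arrays to be tested there, and 43 of these (84.3%) had a ratio below 0, against 50.7% of all 11217 rows tested. The median ratio was -0.44 for the 31 large subunit genes and -0.45 for the 20 small subunit genes, against -0.01 for all rows. By array, the large subunit median was -0.44 and -0.12 with the mutant in Cy5 and -0.39 and -1.69 with the mutant in Cy3. The small subunit median was -0.45, -0.18, -0.19 and -1.25 on the same arrays. All 4 arrays thus lay below 0 for both subunits, and replicate 4 lay far below the other 3. Over the 4 arrays the large subunit median averaged -0.66 ± 0.70 (SD, n = 4), a spread as large as the shift. Without replicate 4 the fitted medians were -0.32 for the large and -0.41 for the small subunit. The exocrine pancreas genes were low on the same 4 spleen arrays, with a median of -4.06 over 12 genes.

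Within this low family, 20 of 51 genes (39.2%) were below 0 on every array that measured them, against 9.1% of all rows. Without replicate 4 the count was 22 of 51, against 17.7% of all rows. The genes of a family are not independent of each other, and these counts carry no test. In limma's test with Benjamini-Hochberg adjustment, 1 of the 51 passed the threshold of 0.05, Rpl35, which was lower (0.143% of all rows passed in that direction). At an unadjusted p under 0.05 there were 8 genes, all lower, against 3.17% of all rows (6.33% in either direction). Rps16 was the one gene above 0 on every spleen array, where 8.59% of all rows were.

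**Figure D2:**
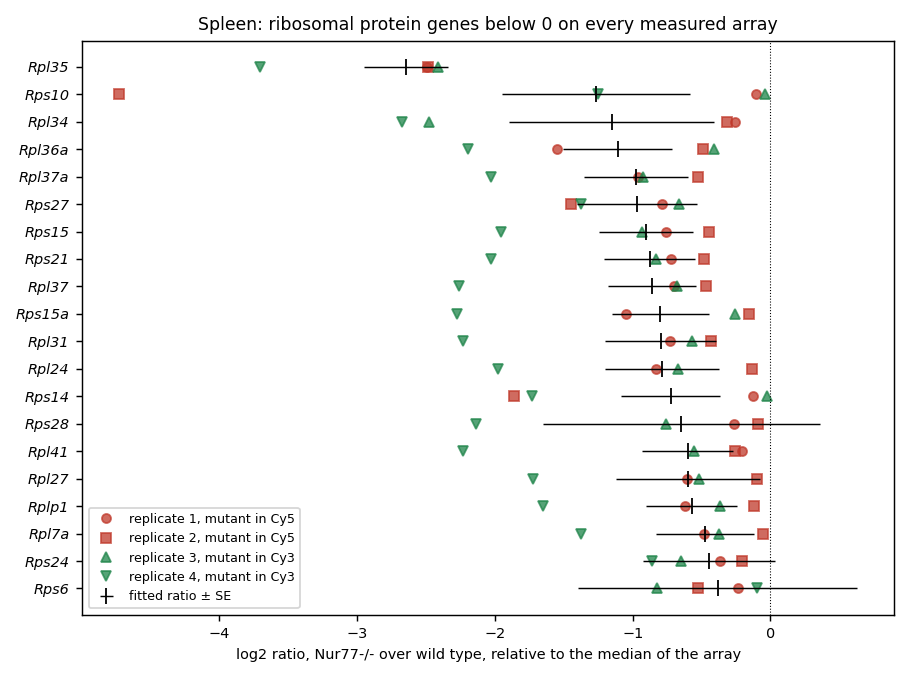
Spleen log2 ratios (x axis) of the 20 ribosomal protein genes that were below 0 on every array measuring them (y axis, ordered by fitted ratio). Symbols are the 4 arrays, coloured by the dye of the mutant pool, and the black marks are the fitted ratio with its standard error. Replicate 4 is the lowest array for most genes, and Rpl35 stands lowest at -2.65 ± 0.31.

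Rpl35, a protein of the large subunit near the exit of the peptide tunnel, had spleen values of -2.49, -2.49, -2.41 and -3.70 on replicates 1 to 4. All 4 values lay below every array of the other organs. The fitted ratio was -2.65 ± 0.31 (SE, n = 4 arrays), a level 6.27-fold lower, with a limma adjusted p of 6.47e-05. This mean joins 3 probes that did not move alike. The first probe read -6.16, -6.47, -5.89 and -7.16 in spleen, and between -0.41 and 0.73 on 19 arrays of the other organs. The second read -0.68, -0.48, -0.53 and -1.93, and the third -0.64, -0.50, -0.82 and -2.02. Both of these lay in the range of the family rather than near the first probe. With the median of the probes the ratio was -0.87 (adjusted p = 0.557), and without the first probe it was -0.83 (adjusted p = 0.551), so the call rests on 1 probe. Over the alternatives tried the adjusted p ran from 3.55e-06 to 0.915, the last with spleen fitted alone.

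The exocrine pancreas genes were also low on these arrays, at sizes below those of that probe for most of the list. In spleen 8 of its 12 tested genes were lower by the test, the list's median was -4.06, and its array medians were -4.16, -4.70, -3.10 and -4.74. Its lowest gene stood at -6.34. The part of these genes in the Rpl35 result and in the family's spleen medians was not tested.

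The 7 other genes at an unadjusted p under 0.05 were named after their values were seen. Among the large subunit genes, Rpl37 read -0.70, -0.47, -0.68 and -2.26 on the 4 arrays, with a fitted ratio of -0.86 ± 0.32. Rpl37a read -0.96, -0.52, -0.92 and -2.03, and its ratio was -0.98 ± 0.38. Rpl36a read -1.55, -0.49, -0.41 and -2.19, and its ratio was -1.11 ± 0.40. All 3 were lowest on replicate 4, and their limma adjusted p lay between 0.540 and 0.613. Rpl37 and Rpl37a are small zinc-binding proteins of the large subunit.

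Of the small subunit genes, Rps21 read -0.72, -0.48, -0.83 and -2.03, with a ratio of -0.88 ± 0.33. Rps15, a protein of the head of the small subunit, read -0.76, -0.44, -0.93 and -1.96, and its ratio was -0.90 ± 0.34. Rps15a read -1.05, -0.16, -0.26 and -2.27 (-0.80 ± 0.35). Replicate 4 was again the lowest of each. Rps27, a zinc-binding protein, read -0.79, -1.45, -0.66 and -1.38, and was the one of the 7 whose lowest array was not replicate 4. None of these 7 genes passed the adjusted threshold.

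The 3 lowest spleen ratios belonged to Rpl35, Rps20 and Rps10. Rps20 read -0.56, 0.51, -3.21 and -3.15, far lower on both arrays with the mutant in Cy3. Rps10 read -0.10, -4.73, -0.04 and -1.26, so its ratio of -1.27 ± 0.68 followed 1 array. The 3 highest were Rpl39l (2.64 ± 1.47 from 3 arrays at 5.17, -1.49 and 2.13), Rps16 and Rps19 (0.68 ± 1.35). None of these 5 genes other than Rpl35 passed the test.

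Skeletal muscle showed no common direction of the family. Of 54 tested genes 29 lay below 0 (53.7%), against 48.7% of all rows. The median ratio was -0.06 for 34 large subunit genes and -0.03 for 20 small subunit genes, against 0.03 for all rows. On every array 3 genes were below 0 (Rpl37, Rps15a and Rps28) and 3 above 0 (Rpl22, Rpl32 and Rps16), against 9.55% and 10.7% of all rows. Behind these medians the arrays split by dye. The large subunit median was 0.25 and 0.33 with the mutant in Cy5 and -0.48 and -1.07 with the mutant in Cy3. The small subunit median was 0.21, 0.03, -0.52 and -0.85. Relative to the array medians, both subunits lay above 0 on both Cy5 arrays and below 0 on both Cy3 arrays. The array medians themselves were -0.435, -0.777, -0.008 and 0.672. With these added back, both subunit medians lay below 0 on every muscle array. Leaving out 1 array put the large subunit median between -0.41 and 0.20 and the small subunit median between -0.40 and 0.18, so their sign depended on the arrays used. Without the centring on array medians the median over all muscle rows was -0.26 and that of the members -0.35. Centring moves all rows of an array by the same amount, so this order of members and other genes is no separate result.

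Rps16, a protein of the head of the small subunit, was the 1 gene of 54 past the threshold in muscle, where 2.1% of all rows passed. At an unadjusted p under 0.05 there were 2 genes, against 10.6% of all rows. Its arrays read 4.24, 5.24, 0.98 and 4.30. All 4 lay above 0, and replicate 3 stood lower than the other 3. The ratio was 3.43 ± 0.61 (SE, n = 4), 10.8-fold higher, with a limma adjusted p of 0.00404. It was measured by 1 probe. Without replicate 1 the ratio was 1.85 (adjusted p = 0.543), and without replicate 2 it was 1.44 (adjusted p = 0.124), both short of the threshold. Without replicate 3 the count rose to 15 genes of 55, in a fit that called 38.2% of all rows. With muscle fitted alone it was 0. Over all alternatives the adjusted p ran from 1.87e-10 to 0.543.

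The same probe read 0.82, 0.98, 1.38 and 1.38 in spleen, and 0.30, 0.75, 0.46 and 0.37 in heart. In brown adipose tissue it read 0.32, -0.11, 0.57 and 2.25, and in lung 0.13, -0.08, 0.53 and 0.54. Spleen and heart thus lay above 0 on every array. In testis it read -0.10, 0.20, 0.00 and -0.04, on both sides of 0, and the fitted ratio was -0.08. None of these 5 organs passed the test for Rps16.

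The other extreme muscle ratios did not pass with all 4 arrays. Without replicate 2, Rps27l and Rpl37 passed as lower, and without replicate 3 Rps27l and Rps6 did. The lowest were Rps27l, Rps6 and Rps28. Rps27l, a paralog of Rps27 known as a p53 target, read -1.53, -2.81 and 2.53 on 3 arrays. Rps6, the small subunit protein phosphorylated by the S6 kinases, read -1.97, -1.18 and 0.90. Rps28 was below 0 on all 4 arrays, at -0.86, -0.07, -0.72 and -3.29. Rpl26 (0.94 ± 1.33) and Rpl39 (0.85 ± 2.45) followed Rps16 at the high end, with arrays on both sides of 0.

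**Figure D3:**
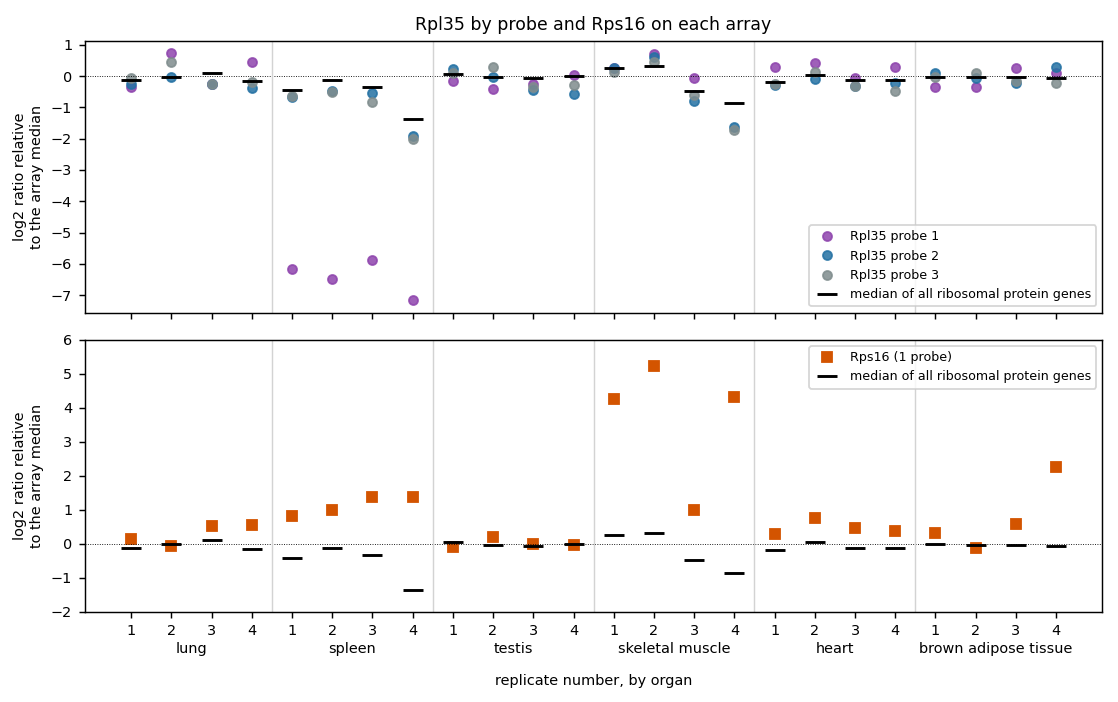
Log2 ratios of the 3 probes of Rpl35 (upper panel) and the 1 probe of Rps16 (lower panel) on each array (x axis, by organ), with the median of all ribosomal protein genes as a black bar. Probe 1 of Rpl35 lies between -7.16 and -5.89 in spleen, and Rps16 between 0.98 and 5.24 in skeletal muscle.

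The low members of spleen replicate 4 and muscle replicate 4 were compared. On spleen replicate 4, 34 of 57 measured members (59.6%) lay under -1, against 19.0% of all rows. On muscle replicate 4 it was 27 of 58 (46.6%), against 27.2%. Of the 54 members measured on both arrays, 23 were under -1 on both, 69.7% of the 33 on the spleen array and 85.2% of the 27 on the muscle array. Over all 9223 rows measured on both, 641 were under -1 on both, out of 1753 on the spleen array (36.6%) and 2568 on the muscle array. Both arrays carry the mutant in Cy3. The part of the dye or of the array in this overlap was not tested.

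Heart showed a small shift of both subunits below 0, which some other lists of translation genes, given below, showed too. The median was -0.14 for 34 large subunit genes and -0.12 for 22 small subunit genes, and 41 of 56 genes (73.2%) were below 0, against 51.2% of all rows. The large subunit median by array was -0.18, 0.06, -0.22 and -0.13, so the array above 0 was replicate 2, whose wild-type channel is labelled skeletal muscle. On replicate 2 the skeletal muscle marker list had a median of 0.07 and the cardiac muscle list -0.03. On replicates 1, 3 and 4 the skeletal muscle list had -0.06, -0.24 and -0.135, and the cardiac list -0.41, -0.41 and -0.30. Whether the label is right was not tested. With replicate 2, 7 of 56 genes were below 0 on every array (8.36% of all rows) and 2 above 0 (7.45%). Without it the count was 28 of 56 (50%), against 15.4% of all rows.

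No heart gene passed the adjusted threshold in limma (0.303% of all rows did), and 3 genes reached an unadjusted p under 0.05, against 9.8% of all rows. With a dye term per organ, or without replicate 3, 1 passed, Rps19. Rps19, a small subunit protein needed for processing of the ribosomal RNA precursor, was lowest at -1.43 ± 0.39, with arrays of -3.45, -2.74, 0.51 and -0.82. Its adjusted p was 0.140, and it ran from 0.0324 to 1 over the alternatives. Rpl7a, a large subunit protein, was low by a small amount on all 4 arrays, at -0.50, -0.14, -0.33 and -0.17. Rpl7l1, a paralog of Rpl7, was highest at 1.62 ± 0.58 from 3 arrays at 3.46, 1.80 and 0.56. Rplp0, the base of the stalk of the large subunit, and Rpl10a had ratios of -0.86 ± 0.72 and -0.62 ± 0.58. Rpl38 (0.77 ± 0.63) and Rpl39 (0.69 ± 0.65) had arrays on both sides of 0.

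In lung, testis and brown adipose tissue the subunit medians lay close to 0. In lung they were -0.06 for 35 large and -0.05 for 20 small subunit genes, and the large subunit arrays read -0.17, -0.09, 0.10 and -0.18. In testis they were -0.07 for 29 large and -0.06 for 23 small subunit genes. In brown adipose tissue they were -0.04 for 37 large and -0.00 for 22 small subunit genes, with all 4 large subunit array medians between -0.09 and -0.02. In brown adipose tissue 52 of 59 genes (88.1%) lay within 0.5 of 0, against 86.5% of all rows, and in heart 50 of 56 (89.3%), against 80.3%.

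No member passed the adjusted threshold in limma in these organs, where 0.251% (lung), 0.0885% (testis) and 0.0591% (brown adipose tissue) of all rows did. At an unadjusted p under 0.05 there were 5 genes in lung, 3 in testis and 1 in brown adipose tissue, against 8.77%, 8.09% and 5.27% of all rows. In lung 5 genes were below 0 and 3 above 0 on every array (8.52% and 8.6% of all rows). In testis it was 1 and 3 (7.99% and 8.85%), and in brown adipose tissue 6 and 2 (7.19% and 6.69%). With 1 spread assumed for all arrays the adjusted count was also 0 in each of the 3.

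In lung the highest gene was Rps27l, which read 1.90, 1.32 and 1.95 on 3 arrays (1.67 ± 0.46, limma adjusted p = 0.205). Rps21 was above 0 on all 4 arrays at 0.22, 0.76, 0.44 and 0.96, opposite to its sign in spleen. Its probes disagreed in lung, with probe means from -0.06 to 1.295. Rpl32 followed Rps27l at 1.04 ± 0.87. The lowest were Rpl39l at -2.43 ± 0.88, Rpl10a at -2.04 ± 1.03 and Rpl39 at -0.91 ± 1.25, each with 3 arrays on both sides of 0.

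In testis the lowest was Rps9, a small subunit protein, at 0.37, -0.99, -1.40 and -0.49 (-0.79 ± 0.24). Rpl6 read 0.64, -1.58, -1.61 and 0.27, and Rpl34 read 0.27, 0.02, 0.23 and -1.51. Rpl6 was thus above 0 on 2 arrays and Rpl34 on 3. The -1.51 of Rpl34 averages probe values of -2.70 and -0.31, the first from a probe without values on replicates 1 and 2. The highest were Rps6 (0.92 ± 0.50), Rpl22 (0.71 ± 0.25) and Rps18 (0.58 ± 0.46).

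In brown adipose tissue the lowest ratios were Rpl32 at -0.94 ± 0.48, Rps28 at -0.72 ± 0.36 and Rpl39l at -0.67 ± 0.51. The highest was Rpl10a at 1.74 ± 0.74, although its 3 arrays read -0.02, 0.60 and 0.16. The model subtracts a dye term estimated over all organs, and for this gene the fitted value lies outside its own arrays. Rplp2 (0.79 ± 0.74), an acidic stalk protein, and Rps16 came next.

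**Figure D4:**
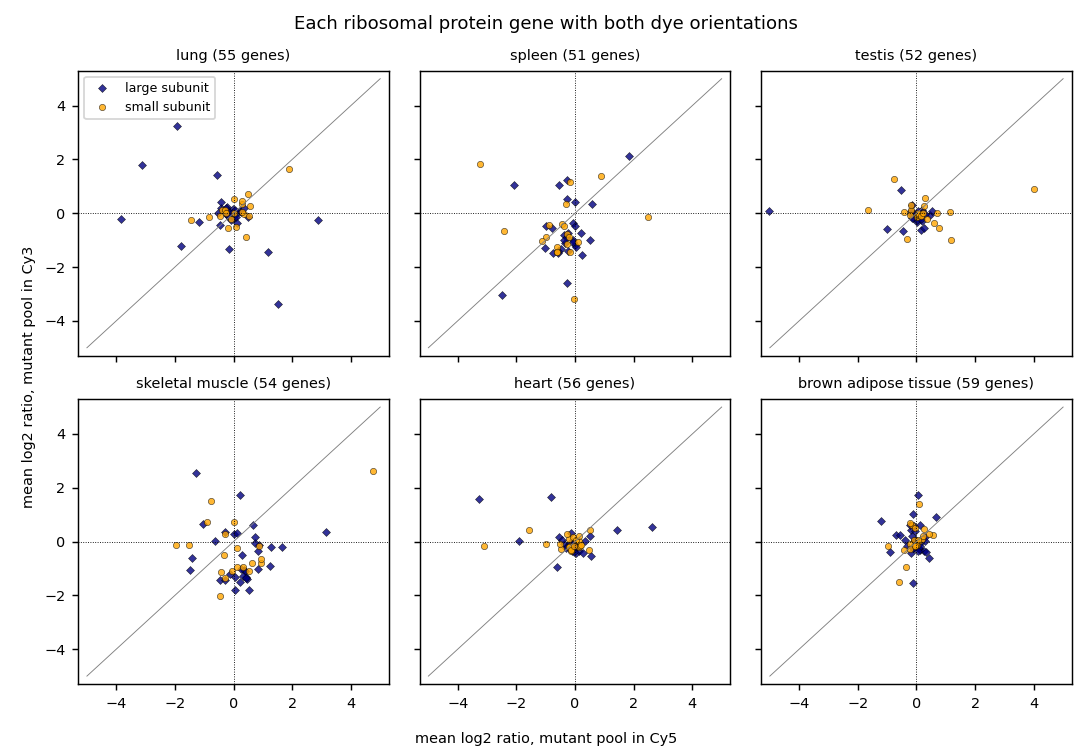
Mean log2 ratio, relative to the array median, of each tested ribosomal protein gene in each organ. The x axis gives the arrays with the mutant in Cy5 and the y axis those with the mutant in Cy3. The grey line marks equal values. In spleen most genes lie in the lower left, and in skeletal muscle many lie to the lower right, above 0 with Cy5 and below 0 with Cy3.

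Over organs, 44 genes were measured in all 6. In limma's F test, 2 of the 44 differed between organs after adjustment, against 3.14% of all rows, and 5 at an unadjusted p under 0.05, against 15.3%. These 2 were Rpl35 (adjusted p = 7.43e-05) and Rps16 (adjusted p = 0.0235). Rpl35 no longer passed with the median of the probes or without its first probe, and Rps16 no longer passed without replicate 1 or 2 of each organ or with arrays scaled to 1 spread. Rps21 came next (adjusted p = 0.0869), with 0.54 in lung, where its probe means had opposite signs, and -0.88 in spleen. Rpl37 and Rplp1, the partner of Rplp2 in the stalk, followed at 0.309 and 0.310. For Rplp1 the ratios were -0.57 in spleen, -0.58 in skeletal muscle and 0.22 in testis.

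A fitted ratio of 1 sign in all 6 organs was found for 6 of the 44 genes, Rpl11, Rpl34, Rpl35, Rpl7, Rps24 and Rps7, all below 0. They made up 13.6% of the 44, against 2.38% of all 7553 rows below 0 in every organ. Rpl34 ran from -1.15 in spleen to -0.05 in brown adipose tissue. Its first probe had 1 spleen value, -4.43, and its second averaged -0.94 in spleen and 0.04 in brown adipose tissue. Rps24 ran from -0.70 in skeletal muscle to -0.06 in testis, and its spleen arrays read -0.37, -0.21, -0.65 and -0.86. Rpl7 ran from -0.39 in skeletal muscle to -0.11 in testis. Rpl11, which with Rpl5 can bind the p53 regulator Mdm2, reached -0.44 in spleen and ran from -0.13 to -0.00 elsewhere. Rps7 reached -0.34 in spleen. The plain organ means, which give all arrays of a dye the same weight, gave a partly different set: Rpl7, Rpl41, Rps7, Rpl35, Rpl22l1 and Rpl19 were below 0 and Rps16 above 0 in all 6. Averaged over these means, 40 of the 44 genes were below 0 (90.9%), against 47.0% of all rows, with a median of -0.19 against 0.02. Without replicate 4 of spleen and of skeletal muscle it was 36 of 42 (85.7%), against 43.4%, with a median of -0.12 against 0.04. In limma's test over the 6 organ means no gene passed after adjustment, nor did any row (0%). At an unadjusted p under 0.05 there were 3 members, against 5.51% of all rows: Rps24 at -0.39 ± 0.14, Rps16 at 1.06 ± 0.44 and Rpl7 at -0.29 ± 0.12. Their adjusted p was 0.725.

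The dye term was past the adjusted threshold for 0 of the 44 genes in limma, against 1.55% of all rows. At an unadjusted p under 0.05 there were 3 (17.6% of all rows): Rpl4, Rps26 and Rpl22l1. The largest was that of Rpl4, whose ratio with the mutant in Cy5 exceeded that with the mutant in Cy3 by 0.81 ± 0.30 (SE). Rps26 differed by -0.72 ± 0.28, Rpl30 by -0.54 ± 0.29, Rps6 by -0.52 ± 0.46 and Rpl6 by -0.48 ± 0.28.

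Probes of the same gene often disagreed. For the 24 symbols with several probes there were 114 pairs of symbol and organ, and in 49 the probe means had opposite signs. The median gap between the lowest and the highest probe was 0.44, and 22 gaps exceeded 1. Besides Rpl35 in spleen (5.52), the widest were those of Rplp0 in skeletal muscle, with probe means of -0.88 and 2.33, and of Rps6 in spleen, with -1.74 and 0.52. The reading of a single member therefore depends on its probe, while the spleen subunit medians were -0.44 and -0.45 with the median of the probes too.

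The paralogs went with no common sign. In spleen Rpl22l1 had -0.19 ± 0.36 and Rpl36al -0.92 ± 0.91, while Rpl39l had 2.64 ± 1.47 and Rpl7l1 0.38 ± 1.58. In testis, where Rpl39l is known to be made, its arrays read 0.18, 0.39, -0.12 and 0.07, a spread around 0. Rpl22l1 ran from -0.21 in heart to 0.14 in testis.

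Ribosomal protein genes were set beside other genes of the translation machinery. In spleen the other mRNAs with a TOP tract, mostly translation factors and RNA-binding proteins, had a median of -0.04 over 16 genes. Their array medians were 0.10, 0.66, 0.06 and -0.94, so replicate 4 was low for them too while the other 3 were above 0. Initiation and elongation factors had 0.14 over 34 genes, ribosome biogenesis factors -0.06 over 42 and mitochondrial ribosomal proteins, a list added after the data were seen, -0.04 over 44. Replicate 4 was the lowest array of each of these lists too, with array medians of -0.46, -0.34 and -0.62. No gene of the 4 lists passed the test in spleen in limma. At an unadjusted p under 0.05 there were 2, against 6.33% of all rows in either direction. In spleen the B and T cell list had a median of 0.14 over 6 genes and the proliferation list 0.14 over 11. In heart the other TOP genes had a median of -0.16 over 15 genes and initiation and elongation factors -0.11 over 35. Mitochondrial ribosomal proteins had -0.10 over 59 and ribosome biogenesis factors -0.04 over 49. The heart subunit medians of -0.14 and -0.12 thus lay within the range of these lists.

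In skeletal muscle, 3 of 41 ribosome biogenesis factors passed the threshold, all higher, where 2.1% of all rows passed in either direction. Dcaf13, a factor of the small subunit processome, read 2.39, 3.47, 2.53 and 1.18. Ddx54 and Ddx52, RNA helicases, had ratios of 3.29 ± 0.69 and 2.48 ± 0.61. The list's median was 0.08. In heart 1 of 59 mitochondrial ribosomal proteins rose, Mrpl14 at 2.10, 1.10 and 2.98 on 3 arrays, where 0.303% of all rows passed in either direction. With 1 spread assumed for all arrays it no longer passed. No S6 kinase gene passed in limma in any organ, with 1 to 4 of them tested per organ. Only the 1 tested in skeletal muscle (ratio 3.26) reached an unadjusted p under 0.05, where 10.6% of all rows did.

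**Figure D5:**
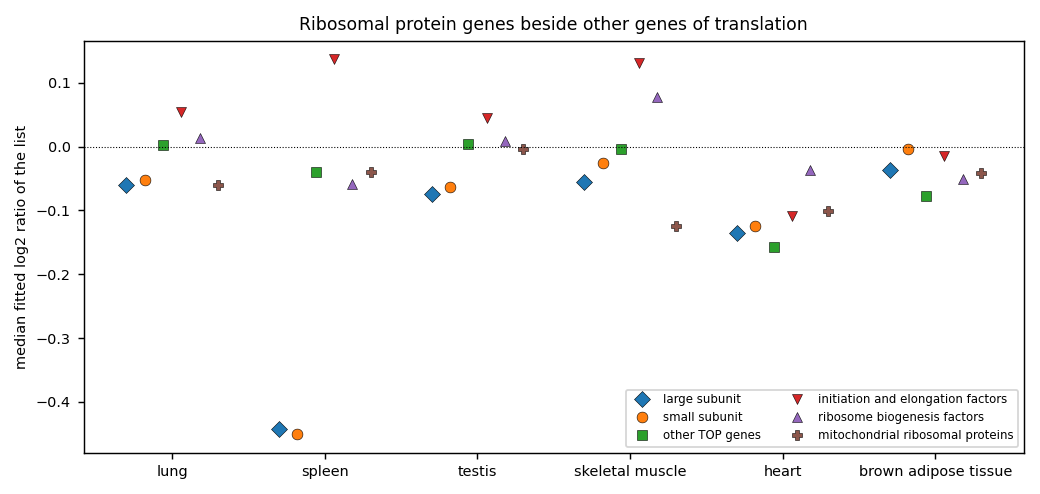
Median fitted log2 ratio (y axis) of the large and small subunit genes and of 4 other gene lists of translation in each organ (x axis). In spleen the subunit medians lie at -0.44 and -0.45 and the other 4 lists between -0.06 and 0.14.

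The members were also described by whether a C or T run lay anywhere in the window around their start. In Rps15a, for example, the longest run lies before the start, and a shorter run of C and T letters crosses the start. In spleen the median was -0.43 for 22 genes with a run of at least 7 and -0.45 for 23 genes without one. In heart the medians were -0.09 for 26 genes and -0.14 for 22 genes. In lung they were -0.12 for 26 genes and 0.02 for 22 genes. The windows of Rpl37 and Rps15a, without and with a run, belong to genes with spleen ratios of -0.86 and -0.80. The split follows RefSeq's start sites, which were not checked here, so a gene without a run may still have a TOP tract.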

How the data were processed

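The analysis started from log2 ratios that the authors deposited for every probe and array. No source used here gives their scale, centring, direction, background correction or software. Labelling was indirect, from 20 µg of RNA, per the labels' protocols. The direction was taken as mutant over wild type. Sizes above 12 (4874 of 392774 values, 10 of 1955 for the members) form a separate mode and were treated as missing. Under that direction each of these 4874 has the sign of Cy5 relative to Cy3.

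Probes of 1 symbol were averaged (16148 rows), each array was centred on its median, and limma 3.58.1 in R 4.3.3 was fitted to all 24 arrays with 6 organ terms, 1 dye term and array weights. A row was tested in an organ with at most 1 of 4 arrays missing and both dye orientations measured. Benjamini-Hochberg adjustment was over all rows of an organ, with a threshold of 0.05. Standard errors are the model's. Tests over organs used 7553 rows. The number of arrays limits the precision. The procedure was tested on simulated data.

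The members, lists and tests were chosen with earlier results of these data known. Named are, per organ, members past the threshold and the 3 highest and 3 lowest ratios. Over organs, the rule names 5 members with the smallest p between organs, up to 5 with 1 sign in all organs, the 5 largest dye terms, the 3 widest probe gaps, all paralogs, and up to 2 genes past the threshold of each other list. Names beyond the rule were chosen after their values were seen, among them Rpl11, Rps7, Rpl7a and Ddx52. Marker lists without spleen values above (RNA polymerase I, mTOR and Myc, erythroid, muscle, fat, germ cell and lung epithelium) had spleen medians between -0.34 and 0.52. Promoter windows are RefSeq's.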

Additional observations from a re-analysis of the deposited data

Results flagged for a closer look

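Of 30 groups of 4 arrays tested for a single stray array, 3 were past Dixon's critical value, where chance gives about 1 in 20. The testis small subunit median was 0.31 on replicate 1 and between -0.05 and -0.02 on the other 3 arrays. Rpl35 in spleen was -3.70 on replicate 4 and between -2.49 and -2.41 on the others. Rpl34 in testis was -1.51 on replicate 4 and between 0.02 and 0.27 on the others. Its first probe read 0.77 and -2.70 on replicates 3 and 4 and had no value on replicates 1 and 2. Its second probe read 0.27, 0.02, -0.32 and -0.31 on replicates 1 to 4, so the stray value follows the first probe. Rpl35 (adjusted p = 7.43e-05) and Rps16 (adjusted p = 0.0235) differed between organs in limma's F test.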

How the results depend on the processing

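Both subunit medians stayed below 0 in spleen and heart in all 17 fits tried, from -0.59 to -0.30 (large, spleen) and from -0.68 to -0.28 (small, spleen). The spleen count of 1 became 0 with the probe median, with spleen fitted alone and with Rpl35 without 1 probe. The muscle count of 1 became 0 with muscle fitted alone, and leaving out 1 array gave 0 to 15. The 15, without replicate 3, came with 38.2% of all rows called and 1 Cy3 array left. The heart count of 0 became 1 (Rps19, lower) with a dye term per organ and ran from 0 to 1 when 1 array was left out. The F test count of 2 became 1 with scaled arrays, with the probe median and with Rpl35 without 1 probe, and ran from 1 to 3 when 1 replicate number was left out. Leaving out 1 array put the muscle large median between -0.41 and 0.20 and its small median between -0.40 and 0.18, the lung large median between -0.13 and 0.00 and its small median between -0.19 and 0.070, and the testis small median between -0.066 and 0.044. It put the testis large median between -0.072 and -0.031, the brown adipose large median between -0.074 and 0.032 and its small median between -0.058 and 0.017. Without centring these brown adipose medians were -0.12 and -0.077. The small one was 0.022 with 1 spread, with a dye term per organ and with the organ fitted alone, and 0.053 with core proteins only. Leaving out heart replicate 2 gave 28 genes below 0 on every array. Equal replicate numbers do not pair the arrays (9 of 60 pairs over 0.1, 8 of 60 for other numbers of the same dye), and the replicate block kept the spleen count at 1 and the muscle count at 1. Missing arrays limit single genes, and ratios without intensities give no signal over background.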
